A study of Zea mays with 6 samples.

Results

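The genes described here are teosinte branched1 (tb1) and grassy tillers1 (gt1), a pair of transcription factor genes that hold back growth in maize. They were taken by identifier, Zm00001d033673 for tb1 and Zm00001d028129 for gt1, and are 2 of the 45953 features in the deposited count table. Both passed the filter on low counts, as did 23349 features in all. The table gives identifiers only, and the RefSeq gene table for assembly Zm-B73-REFERENCE-NAM-5.0 held none of its 43789 nuclear identifiers, so the symbols are those assigned with the identifiers and were not checked against an annotation.

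The tassel is the male inflorescence of maize, and RNA was measured in its meristems from tassel-less1 (tls1) mutant plants (3 libraries) and from WT plants (3 libraries), with the cultivar given as B73 for both. The labels describe the mutant as boron deficient, and all plants received the same fertilizer, at 238 ppm nitrogen and 0.08 ppm boron, under 16 h of light and 8 h of dark. Meristems were collected at the V6-V7 stage at a length of 1 mm, which the design places before the mutant's defects in form. The comparison asks which transcripts differ at that stage. The labels do not state whether libraries are from separate plants, how many meristems each holds or which tls1 allele was used, and a p-value here covers just the library-to-library spread, which could be technical.

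The tb1 product belongs to the TCP family of DNA-binding proteins and keeps axillary buds of maize from growing out into branches. High tb1 activity is a known difference between maize, with its single main stalk, and its branched wild ancestor teosinte. The gt1 product is a homeodomain leucine zipper (HD-ZIP) factor that acts with tb1 in keeping buds dormant under shade, and it also stops the growth of carpels in the florets of the tassel, which leaves those florets male. In textbook accounts gt1 expression in buds depends on tb1. The tls1 gene is known to encode a boron channel of the aquaporin family, and boron is needed to crosslink the pectin of the plant cell wall.

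Both repressors had few reads in 1 mm tassel meristems, from 10 to 102 per library for tb1 and from 8 to 19 for gt1, and neither passed the test for a difference between tls1 and WT. The mean level of tb1 was higher in tls1 than in WT, but its levels overlapped between the genotypes and its direction differed between replicate pairs. The mean levels of gt1 were close, and its libraries ranked by replicate number in the same order in both genotypes.

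tb1 was counted 102, 29 and 78 times in tls1 libraries 1, 2 and 3, against 10, 43 and 38 times in WT libraries 1, 2 and 3. Scaled by library size to CPM, a count divided by the library's total and multiplied by 1000000, these were 1.37, 0.395 and 1.04 in tls1 and 0.129, 0.593 and 0.508 in WT. The highest and the next highest levels were thus those of tls1 1 and tls1 3, while tls1 2 lay below WT 2 and WT 3, so the genotypes overlapped. WT 1 was the lowest of all 6 libraries. The library totals ran from 72498318 to 77619452 counted reads, so 3 counts, the upper limit that a count of 0 allows, corresponded to between 0.0387 and 0.0414 CPM, and every library was above it. Reads were not counted as molecules, so intervals and floors cover counting error only.

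Counting error alone gave tb1 an exact Poisson 95% interval of 1.12 to 1.66 CPM in tls1 1, 0.264 to 0.567 in tls1 2 and 0.825 to 1.30 in tls1 3. The intervals were 0.0618 to 0.237 CPM in WT 1, 0.429 to 0.799 in WT 2 and 0.359 to 0.697 in WT 3. Ordered from the highest, tls1 1 and tls1 3 had overlapping intervals, and so did WT 2, WT 3 and tls1 2. Gaps beyond counting error lay between tls1 3 and WT 2 and between tls1 2 and WT 1. Neither gap parts the genotypes: the first leaves tls1 2 among WT libraries, and the other sets 1 WT library below the rest.

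**Figure D1:**
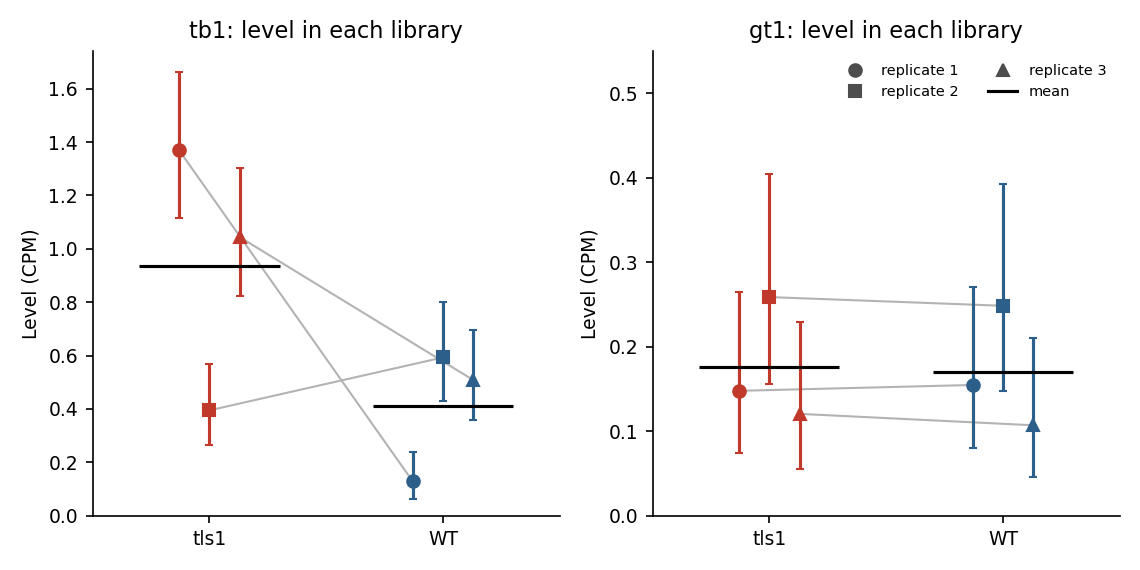
Level of tb1 (left) and gt1 (right) in CPM in each library, tls1 in red and WT in blue, with exact Poisson 95% intervals for counting error. Symbols mark the replicate number, grey lines join libraries of the same number and black bars are group means. The tb1 lines cross, from 1.37 CPM in tls1 against 0.129 in WT for number 1 to 0.395 against 0.593 for number 2, while the gt1 lines are nearly flat.

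The mean level of tb1 was 0.936 ± 0.496 CPM in tls1 and 0.410 ± 0.247 CPM in WT (SD, n = 3 each). The log2 fold change, tls1 over WT, was 1.17 ± 0.67 (SE), with a 95% interval from -0.44 to 2.79 (edgeR quasi-likelihood test, unadjusted p = 0.128, Benjamini-Hochberg adjusted p = 0.436). In linear terms this is 2.26-fold, with an interval from 0.735-fold to 6.93-fold, so neither a lower level of tb1 nor a rise of several fold lies outside it. An exact permutation test of mean log2 CPM over the 6 libraries gave p = 0.3 (2-sided, smallest possible 0.1). In bulk tissue, a change in the number of cells that express tb1 and a change in the RNA per cell cannot be told apart.

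Both genotypes carry replicate numbers 1 to 3, and libraries of the same number deviated together across genes, so tb1 was also read within each pair. It was 10.6-fold higher in tls1 1 than in WT 1, with an exact conditional 95% interval for counting error from 5.55-fold to 22.8-fold. In pair 2 the ratio of tls1 to WT was 0.665 (0.401 to 1.09), and in pair 3 it was 2.05 (1.38 to 3.11). tb1 was therefore higher in tls1 in 2 of 3 pairs, beyond counting error in pairs 1 and 3. It was lower in pair 2, within counting error. Counting error is not the whole spread, since libraries of the same genotype differed by up to 3.47-fold in tls1 and 4.60-fold in WT. Both exceed the pair 3 ratio.

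Of the tested genes, 24.6% were higher in tls1 in all 3 pairs and 21.3% were lower in all 3, and tb1 was in neither class. The pair 1 difference was among the larger ones of that pair. On the log2 scale, with 0.5 added to each count, it ranked 187 by size among the 23349 tested genes. This rank and the shares for pairs 2 and 3 are not matched for level, and fold changes spread more widely among genes of low CPM. In WT 1 tb1 had only 10 counts. In pair 2 the size of the tb1 difference was equalled or exceeded by 13.9% of tested genes, and in pair 3 by 7.41%. With the replicate number as a block, the log2 fold change was 1.17 ± 0.78 (SE), with a linear interval from 0.591-fold to 8.62-fold (edgeR adjusted p = 0.446), so the block made the tb1 estimate no more precise. Pair 1 carried most of the difference: without it the blocked log2 fold change was 0.25 ± 0.55 (edgeR adjusted p = 0.879). Without pair 2, the pair that went the other way, it was 2.09 ± 0.69, at an unadjusted p of 0.0221 and an adjusted p of 0.223 (edgeR), and this too missed the threshold.

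**Figure D2:**
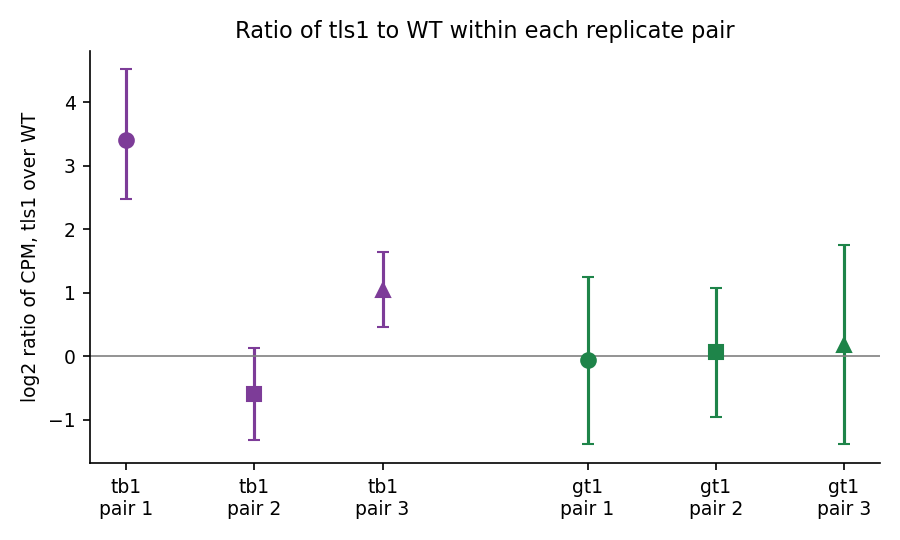
Log2 ratio of CPM, tls1 over WT, within replicate pairs 1, 2 and 3 for tb1 (purple) and gt1 (green), with exact conditional 95% intervals for counting error. The tb1 ratios run from -0.59 in pair 2 to 3.41 in pair 1, and the gt1 ratios lie between -0.07 and 0.17.

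gt1 was counted 11, 19 and 9 times in tls1 libraries 1, 2 and 3, against 12, 18 and 8 times in WT libraries 1, 2 and 3. Its levels were 0.148, 0.259 and 0.120 CPM in tls1 and 0.155, 0.248 and 0.107 CPM in WT. Replicate 2 was the highest and replicate 3 the lowest in both genotypes. The 3 pairs did not overlap with each other, as was the case for 7.90% of the tested genes. These are small counts, however: the exact Poisson 95% intervals of all 6 libraries overlapped, from 0.156 to 0.404 CPM in tls1 2, the highest, and from 0.0462 to 0.211 CPM in WT 3, the lowest.

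The mean level of gt1 was 0.176 ± 0.073 CPM in tls1 and 0.170 ± 0.072 CPM in WT (SD, n = 3 each). The log2 fold change was 0.03 ± 0.53 (SE), with a 95% interval from -1.24 to 1.30 (edgeR unadjusted p = 0.960, adjusted p = 0.984). That interval, 0.423-fold to 2.46-fold, takes in changes of more than 2-fold in either direction, so the closeness of the means does not show that gt1 was unaffected. With the replicate block the interval ran from 0.459-fold to 2.27-fold (edgeR adjusted p = 0.977). An exact permutation test of mean log2 CPM gave p = 0.9 (2-sided, smallest possible 0.1).

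Within pairs the ratio of tls1 to WT for gt1 was 0.955 in pair 1 (exact 95% interval 0.382 to 2.36), 1.04 in pair 2 (0.517 to 2.10) and 1.13 in pair 3 (0.386 to 3.35). Each pair differed by a single count. Differences of this size are well inside counting error, and the direction was not the same in the 3 pairs. Without a block the sign of the gt1 estimate also turned when single libraries were left out, with a log2 fold change of -0.03 without WT 1, -0.22 without WT 3 and -0.35 without tls1 2.

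The spread between libraries of a genotype was set against counting error. For counts scaled to a common depth, the variance was 19.6 times the mean for tb1 in tls1 and 11.1 times in WT, where counting error alone gives a ratio near 1. For gt1 it was 2.28 times in tls1 and 2.27 times in WT. A ratio from 3 libraries is imprecise. The Poisson intervals of all gt1 libraries overlapped, but such overlap is not a test of spread. Whether gt1 spread beyond counting error was not tested. The biological coefficient of variation that edgeR assigned was 0.578 for tb1 and 0.406 for gt1, against a common value of 0.272 over all tested genes. These values draw on other genes as well as on each gene's own counts. With the replicate block they were 0.580 for tb1 and 0.301 for gt1, against a common value of 0.165. For tb1 the coefficient of variation in CPM was 53.0% in tls1 and 60.3% in WT, while counting alone would give 12.0% and 18.2% at its mean counts. For gt1, with a mean of 13 counts in tls1 and 12.7 in WT, it was 41.7% in tls1 and 42.3% in WT, while counting alone would give 27.7% and 28.1%.

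The question whether the repressors moved apart was addressed by the ratio of gt1 to tb1 within each library, which needs no scaling for depth. The log2 ratio of counts, with 0.5 added to each, was -3.16, -0.60 and -3.05 in tls1 libraries 1, 2 and 3 and 0.25, -1.23 and -2.18 in WT libraries 1, 2 and 3. Its mean was -2.27 ± 1.45 in tls1 and -1.05 ± 1.23 in WT (SD, n = 3 each), a difference of -1.21 (exact permutation p = 0.3, 2-sided, smallest possible 0.1). The difference was -3.41 in pair 1 and -0.87 in pair 3 but 0.64 in pair 2. With 3 libraries against 3 this test could not reach 0.05 whatever the size of a change, and the pairs differed in direction. Since the gt1 counts were nearly equal within each pair, the ratio mostly restates the tb1 differences. The values compare libraries and not the levels of the genes, since transcript lengths were not used.

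The values were also placed among those of all tested genes, on CPM and thus without correction for transcript length. In these terms, 13.2% of the tested genes had a lower mean CPM than tb1 and 2.48% a lower mean than gt1. The SE of the log2 fold change was 0.67 for tb1 and 0.53 for gt1, against a median of 0.14 over all tested genes. In size the tb1 fold change was exceeded by 3.44% of the tested genes. Among the 1242 tested genes with a mean from 0.5 to 1.0 CPM, where tb1 lies, the median log2 fold change was 0.17 and the middle 90% ran from -0.73 to 1.61, so the tb1 value lay inside that range. Among the 1134 genes from 0.125 to 0.25 CPM, where gt1 lies, the median was 0.16 and the range ran from -1.06 to 1.58.

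**Figure D3:**
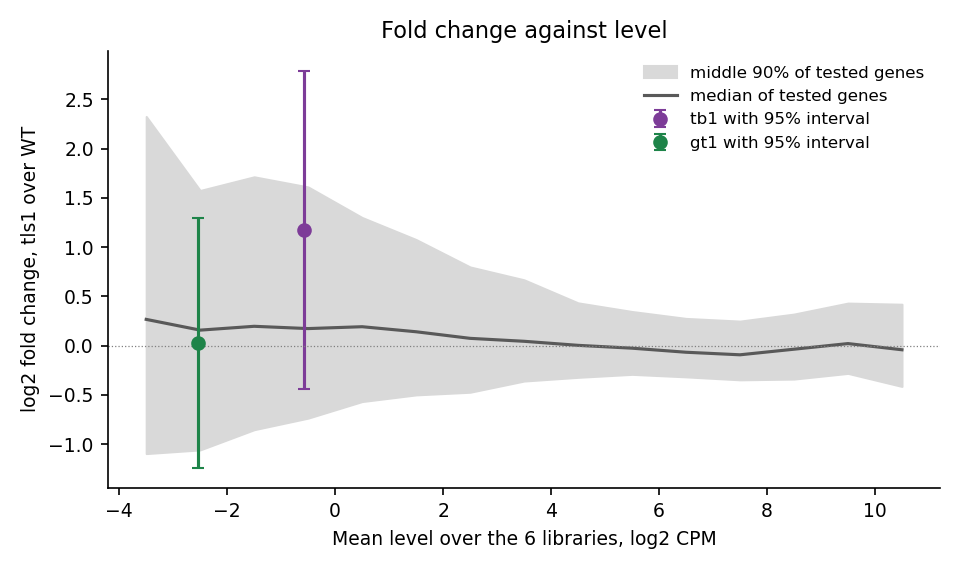
Log2 fold change, tls1 over WT, against the mean level over the 6 libraries in log2 CPM. The grey band is the middle 90% of tested genes and the dark line their median, in steps of 1 on the log2 scale with at least 20 genes, and tb1 and gt1 are drawn with the 95% interval of edgeR. Both genes lie inside the band of their level.

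Over the whole table edgeR called 1 of the 23349 tested genes at an adjusted p under 0.05, which is 0.00428%, and 0 of the 2 repressors. With the replicate block it called 0.694% of the tested genes, and DESeq2 without the block called 5.35%, and neither tb1 nor gt1 was among them. At an unadjusted p under 0.05, 16.5% of the tested genes passed in edgeR and neither of the repressors did. For 22.5% of the tested genes the CPM ranges of tls1 and WT were separate, while for tb1 and for gt1 they overlapped. The share of genes called by edgeR was so small that a missed call says little about either gene.

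**Figure D4:**
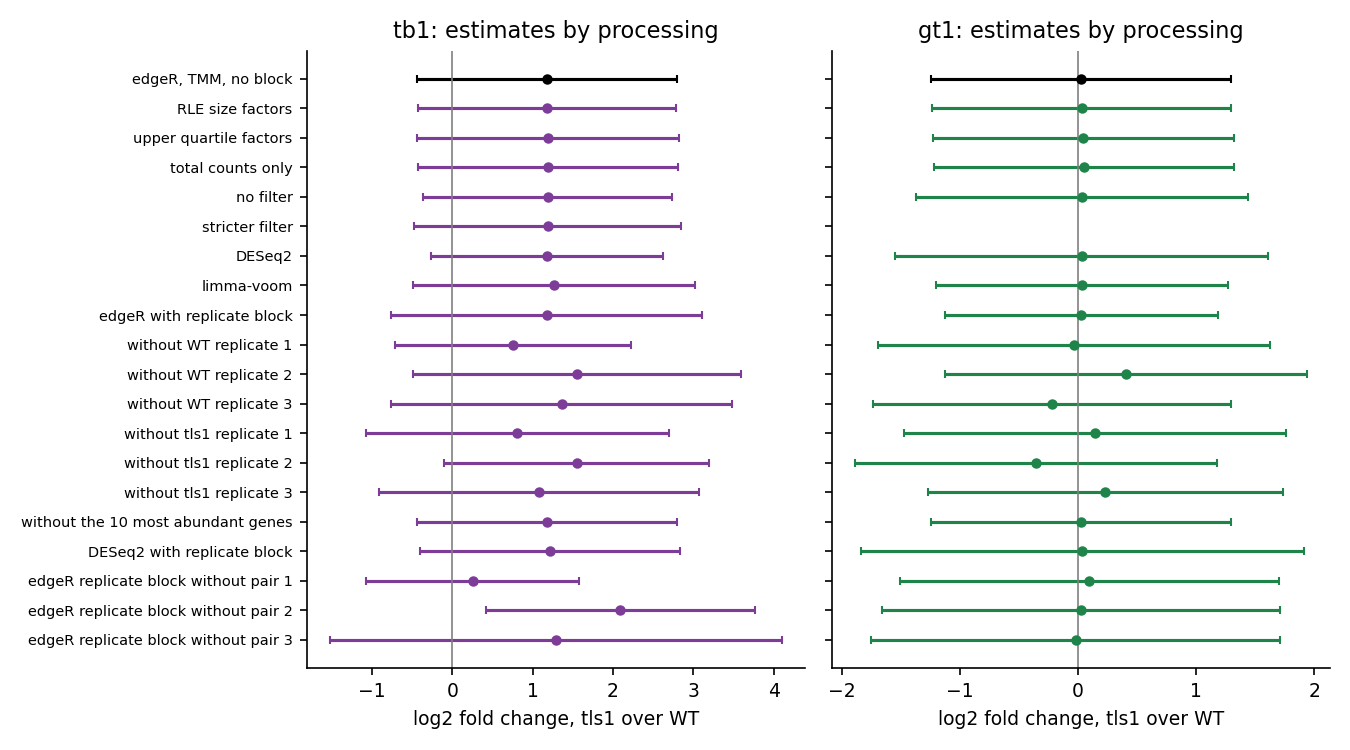
Log2 fold change, tls1 over WT, with 95% intervals for tb1 (left) and gt1 (right), from edgeR with TMM factors and no block (black) and from the alternatives (coloured). The tb1 estimates run from 0.25 to 2.09, all above 0, but all reuse the same libraries. The gt1 estimates lie on both sides of 0, with none under the stricter filter, which gt1 did not pass.

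The features next to each gene in identifier order were read in the same fit, 10 on each side. Around tb1, 13 of 20 neighbours were tested and 6 had no count in any library. Their log2 fold changes ran from -0.30 to 0.80 with a median of 0.00, 7 were above 0 and 6 below. None passed the test (the lowest adjusted p in edgeR was 0.227, or 0.147 when blocked by replicate number). Since edgeR called 0.00428% of all tested genes, or 0.694% with the block, this says little about the neighbours. The nearest tested neighbours were Zm00001d033671, with a log2 fold change of 0.12 ± 0.47 (SE), and Zm00001d033674, with -0.13 ± 0.08. All 13 were smaller in size than the tb1 value, whose SE was larger than that of each of them.

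Around gt1, 9 of 20 neighbours were tested and 7 had no count in any library. Their log2 fold changes ran from -0.29 to 0.94 with a median of 0.01, 5 were above 0 and 4 below. None passed the test (the lowest adjusted p in edgeR was 0.244, or 0.0740 when blocked by replicate number). With 0.00428% of all tested genes called, or 0.694% with the block, the lack of a call here again says little. The immediate neighbours on either side were Zm00001d028128, with a log2 fold change of -0.03 ± 0.06 (SE), and Zm00001d028130, with 0.01 ± 0.08. Zm00001d028130 had 47.9, 39.7 and 43.4 CPM in tls1 libraries 1, 2 and 3 and 44.4, 42.5 and 41.7 CPM in WT libraries 1, 2 and 3. At such levels the SE was far smaller than that of gt1, and the genotypes still overlapped.

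**Figure D5:**
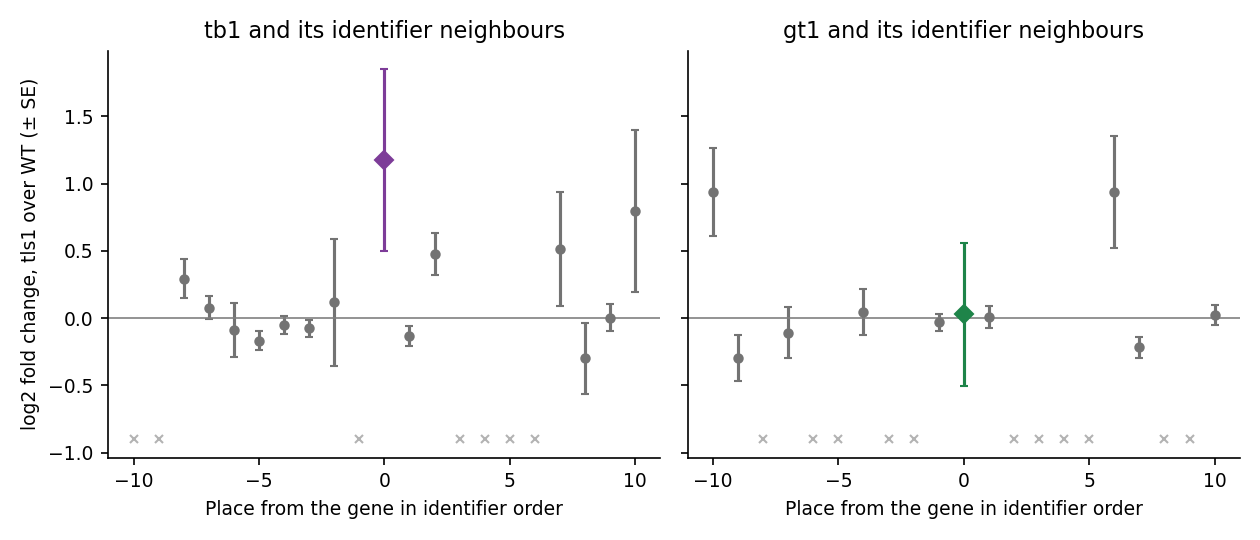
Log2 fold change, tls1 over WT, ± SE for tb1 (left, purple) and gt1 (right, green) and for the tested features within 10 places in identifier order (grey). Crosses mark features that did not pass the filter and have no value. No grey point lies above the tb1 value of 1.17, and the gt1 value of 0.03 lies among those of its neighbours.

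The genes most like tb1 across the 6 libraries, by Pearson's r of log2(CPM + 0.5) over the tested genes, were Zm00001d028004 (r = 0.997) and Zm00001d037170 (r = 0.997). Zm00001d028004 had 0.349, 0.150 and 0.281 CPM in tls1 libraries 1, 2 and 3 and 0.0644, 0.179 and 0.174 CPM in WT libraries 1, 2 and 3, which is the order seen for tb1. Zm00001d037170 had 13.3, 10.4 and 12.5 CPM in tls1 and 9.13, 11.3 and 10.7 CPM in WT, in the same order but over a much narrower range. The most opposed were Zm00001d015962 (r = -0.996) and Zm00001d024420 (r = -0.995), at 48.3 to 51.0 CPM and 33.2 to 34.8 CPM in tls1 and at 50.2 to 52.9 CPM and 34.5 to 35.6 CPM in WT. In all, 164 genes had r above 0.9 with tb1 and 241 had r below -0.9. These points are the same 6 libraries for each gene, and among this many genes such values are a description only.

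For gt1 the most alike were Zm00001d046202 (r = 0.996) and Zm00001d015886 (r = 0.991). Zm00001d046202 had 0.725, 10.02 and 0.388 CPM in tls1 libraries 1, 2 and 3 and 1.33, 9.99 and 0.0401 CPM in WT libraries 1, 2 and 3, so it was high in both libraries of number 2. Zm00001d015886 ran from 112.8 to 119.7 CPM in tls1 and from 112.1 to 119.8 CPM in WT. The most opposed were Zm00001d029741 and Zm00001d001841 (r = -0.9999 and -0.997), both with 0 counts in tls1 2. Zm00001d001841 had 5.58, 0 and 17.0 CPM in tls1 libraries 1, 2 and 3 and 5.68, 0.0138 and 21.3 CPM in WT libraries 1, 2 and 3. Both of its libraries of number 2 were thus at or under the floor of 3 counts, and both of number 3 were the highest. In all, 170 genes had r above 0.9 with gt1 and 331 had r below -0.9. The Poisson intervals of all gt1 libraries overlapped, so these values too are a description only.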

How the data were processed

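The values are raw counts that the authors deposited, 1 column per library per the file headers. Per the labels' protocols, RNA was selected by poly-A and read from both ends. The submitters' processing notes name cutadapt and STAR. Tool versions, the counter, the strand setting and the build were not given in the sources used here. Therefore reads of overlapping or antisense genes cannot be told apart from those of tb1 and gt1.

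Counts were tested with edgeR 4.0.16 (R 4.3.3): quasi-likelihood F test on genotype alone, TMM factors, filterByExpr at its minimum count of 10, and Benjamini-Hochberg adjustment over the 23349 features that passed. Fold changes are tls1 over WT, with no shrinkage, and CPM is the count over the column sum. DESeq2 1.42.0 and limma-voom (limma 3.58.1) were alternatives. Other alternatives were RLE, upper quartile or no normalization factors, no filter, a mean count of at least 50, the replicate block, leaving out each library or pair, and removing the 10 most abundant genes. Exact tests used scipy 1.17.1 in Python 3.11.15. The fits were also run on simulated counts with the same spread for every gene and no effect of replicate number. That run does not cover spreads as wide as those of tb1 and gt1.

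Deviations from the genotype means correlated across genes at 0.378, 0.580 and 0.700 between libraries numbered 1, 2 and 3. From this alone, and not from the labels, same-numbered libraries were treated as pairs. No libraries agreed within sampling noise (mean chi-square per gene at least 43.9). By this measure tls1 1 was nearer to WT 2 (71.7) than to WT 1 (127) or WT 3 (137). Among WT libraries, tls1 2 was nearest to WT 2 (43.9) and tls1 3 to WT 3 (46.3).

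The genes and lists were chosen with earlier results of these data known. Genes named besides tb1 and gt1 are the 2 most alike and 2 most opposed by Pearson's r for each, and the nearest tested identifiers among 10 on each side. The 3 lists set by symbol (bud outgrowth, sex determination in the tassel, meristem and leaf markers) could not be tied to identifiers, so those genes, the mutated gene and the check of the tissue are not analysed here. Sequences are not used here.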

Additional observations from a re-analysis of the deposited data

How the results depend on the processing

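Neither tb1 nor gt1 passed an adjusted p under 0.05 in any of the fits run, the lowest being 0.223 for tb1 and 0.759 for gt1. The tb1 estimate was above 0 in all 19 alternatives, from 0.25 to 2.09 on the log2 scale. It ran from 0.75 to 1.55 when 1 library was left out. These alternatives reuse the same libraries, so their shared sign is not independent support for a rise. The gt1 estimate was above 0 in 14 of 18, from -0.35 to 0.41 when 1 library was left out and -0.020 with the replicate block without pair 3. It had no value under the stricter filter. The difference between genotypes in the log2 ratio of gt1 to tb1 was below 0 in all 9 alternatives, which reuse the same libraries. It ran from -2.05 to -0.56 when 1 library was left out (exact permutation p from 0.2 to 0.6, 2-sided, smallest possible 0.2). These tests too could not reach 0.05 whatever the size of a change. The mean within pairs was -1.21 (replicate block, exact p = 0.5, smallest possible 0.25). With complete pairs that mean equals the unpaired difference by construction.

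The number of genes called was 1 in edgeR, from 0 to 9 when 1 library was left out, 13 with no filter, 2 with limma-voom and 1250 with DESeq2 (681 higher, 569 lower). It was 162 with the edgeR replicate block (115 higher, 47 lower) and 1633 with DESeq2 and the block. The edgeR block called 433 genes when pair 1 was dropped, 159 when pair 2 was dropped and 52 when pair 3 was dropped. What made the number of called genes differ between these settings was not tested. The block changed no call of tb1 or gt1. At its mean counts of 13 in tls1 and 12.7 in WT, counting error alone would give gt1 a coefficient of variation of 27.7% and 28.1%.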
